A study of Mus musculus with 4 samples.

Results

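The collagen genes were taken as the deposited entries whose symbol is Col followed by a type number and a chain number, which gave 44 genes of 21091 entries. They were divided by the kind of assembly their chains form into 11 fibrillar collagens, 6 basement membrane collagens, 9 FACIT collagens and 18 others. Their transcripts were measured by RNA-seq in neural progenitors from embryonic mouse brain at embryonic day 11 (E11) or 14 (E14), from control (CTL) or *Stat3* conditional knockout (*Stat3* cKO) embryos, after 3 days in suspension culture with EGF and FGF, in which the cells grew as neurospheres. The study asked which genes depend on STAT3 as progenitors pass from E11 to E14. The 4 groups (CTL and *Stat3* cKO at each stage) had 1 library each, so the spread between replicates is unknown and no test was made. Where 4 values follow each other, they are for CTL and *Stat3* cKO at E11 and then for CTL and *Stat3* cKO at E14.

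The *Stat3* cKO embryos carried floxed *Stat3* on both alleles together with a Cre recombinase driven by a Nestin promoter, which acts in neural progenitors and leaves *Stat3* intact in cells that never used that promoter. The labels and the sequencing methods call the controls wild-type, whereas the animal methods give Nestin-Cre embryos with 1 floxed allele. The strain is labelled C57BL/6 in all groups. If the controls lacked Cre, a genotype ratio would also hold that difference. How many embryos were pooled for a library is not stated in the sources used here.

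Collagens are secreted proteins, or in a few cases membrane proteins, whose chains wind into triple helices. Fibrillar collagens pack into the rope-like fibrils of connective tissue, and FACIT collagens decorate the surface of those fibrils. Type IV collagens form the sheet-like network of basement membranes, and the remaining members include chains of beaded filaments, anchoring fibrils and hexagonal networks, and cell surface proteins. In the embryonic brain, fibrillar collagens are known mainly from the meninges and the tissue around vessels, and basement membrane collagens from the pial surface and the vessel wall.

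Promoter sequence was looked up for the collagens in RefSeq windows of build GRCm38.p6, and 35 of the 44 genes were matched, with 38 windows in all. Shown here are the 250 bases before the annotated start of the 2 genes with the highest E11 levels, *Col3a1* (chr1:45311288-45311537, + strand) and *Col1a2* (chr6:4505368-4505617, + strand), both far lower at E14, and of *Col5a3* (chr9:20815068-20815317, - strand), which ran the other way. Capitals mark a TATAAA in *Col3a1*, and a CCAAT and 2 GGGCGG motifs in *Col1a2* and in *Col5a3*, where GGGCGG reads as CCGCCC because both strands were searched.
Col3a1: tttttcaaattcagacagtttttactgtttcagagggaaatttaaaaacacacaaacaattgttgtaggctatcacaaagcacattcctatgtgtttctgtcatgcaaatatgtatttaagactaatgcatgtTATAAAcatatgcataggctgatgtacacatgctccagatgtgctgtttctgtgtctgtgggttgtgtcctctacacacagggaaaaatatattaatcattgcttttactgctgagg
Col1a2: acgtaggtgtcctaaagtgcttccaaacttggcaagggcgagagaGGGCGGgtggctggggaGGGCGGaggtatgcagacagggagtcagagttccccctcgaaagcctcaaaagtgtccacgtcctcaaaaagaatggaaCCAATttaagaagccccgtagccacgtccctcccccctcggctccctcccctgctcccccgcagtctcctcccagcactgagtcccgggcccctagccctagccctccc
Col5a3: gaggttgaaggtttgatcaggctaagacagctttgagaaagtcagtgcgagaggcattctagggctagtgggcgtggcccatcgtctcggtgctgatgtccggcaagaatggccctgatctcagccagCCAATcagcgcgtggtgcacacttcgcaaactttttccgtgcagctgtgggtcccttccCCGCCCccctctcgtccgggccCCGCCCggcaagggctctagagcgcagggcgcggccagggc
The windows differ in base composition, with 35.2% G and C in *Col3a1*, 62% in *Col1a2* and 62.8% in *Col5a3*. Over full windows, which also hold the bases just after the start, TATAAA was present in 5 of the 38 collagen windows (13.2%) and in 13.6% of all 32851 windows. CCAAT was present in 13 collagen windows (34.2%) against 37.4% of all windows, and GGGCGG in 23 (60.5%) against 35.7%. TTCNNNGAA, the spaced palindrome bound by STAT proteins, was found in 2 collagen windows (5.26%), those of *Col28a1* and *Col6a5*, against 8.3% of all windows. These are matches of letters within a window and say nothing of whether a factor binds there. *Col4a1* and *Col4a2*, which are transcribed away from each other, start so close together that their annotated first bases overlap. The shared stretch on the + strand of chr8:11312805-11312826 is shown because these genes also kept nearly the same ratio to each other in every library, as given with their values.
Col4a1 and Col4a2 overlap: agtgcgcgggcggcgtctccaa

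The targeted gene was read first. *Stat3* was at 7.41, 6.74, 27.6 and 9.55 FPKM (fragments per kilobase, corrected for library size), so *Stat3* cKO held 0.346 times the CTL level at E14 and 0.911 times at E11. Only the exons that encode the SH2 domain were floxed, and a value for the whole gene does not measure the deleted exons, so the low ratio at E14 and the ratio near 1 at E11 do not give the extent of deletion. Markers of neural progenitors were present throughout, with *Sox2* between 128 and 284 FPKM. The Y-linked *Ddx3y* was at 25.1 FPKM in E14 *Stat3* cKO and at most 0.0569 elsewhere, and *Xist* was at 0.037 FPKM in that library and at 13.6 to 46.9 in the others. Sex and genotype therefore cannot be told apart at E14. The FPKM values of a library summed to between 806587 and 1461770. Fragment counts were not among the values, and the steps between the lowest values gave only a rough estimate of the fragments behind a gene.

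Collagen transcripts were abundant in both E11 libraries and scarce in both E14 libraries. Their summed level was 1583 FPKM in CTL and 1499 in *Stat3* cKO at E11, and 81.6 and 95.6 at E14, which is 19.4 times lower at E14 in CTL and 15.7 times lower in *Stat3* cKO. In each E11 library 30 collagens reached 1 FPKM, and in each E14 library 16 did, with partly different genes in the 2 genotypes. A level of 10 FPKM was reached by 16 and 18 collagens in the E11 libraries and by 1 in each E14 library. *Col3a1* alone made up 42.6% and 39.1% of the collagen sum at E11, and *Col9a3* 23.0% and 36.2% at E14.

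**Figure D1:**
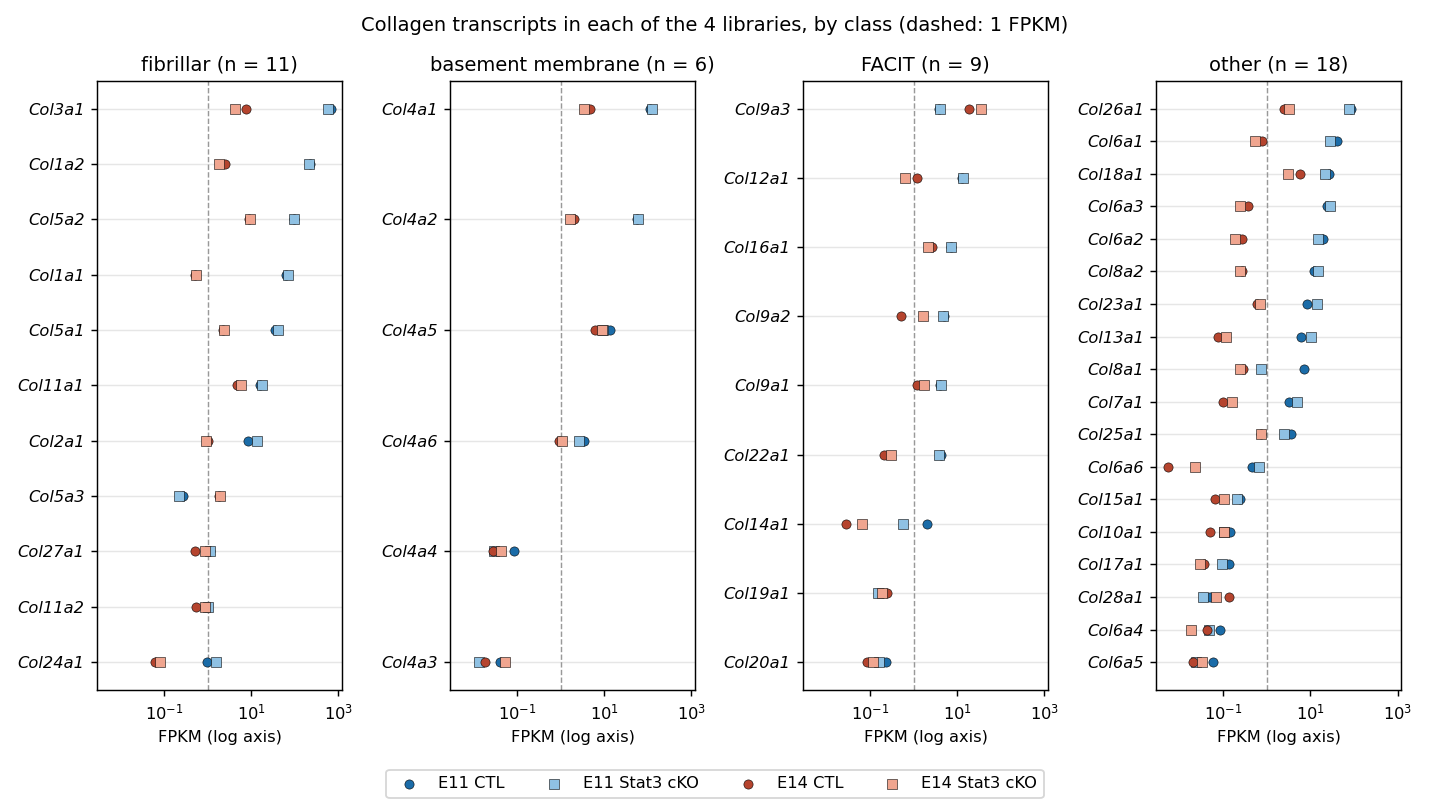
FPKM of each of the 44 collagens on a log axis, in 1 panel per class with genes ordered by their mean, and 1 point for each of the 4 libraries. Blue E11 points lie to the right of red E14 points for most genes above the dashed line at 1 FPKM, and *Col9a3* and *Col5a3* are the other way round.

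An average of 1 FPKM or more across the 4 libraries was reached by 29 collagens, and ratios were taken for these as deposited. Of the 29, 27 had both E14 libraries below both E11 libraries, against 32.1% of the 12449 entries with such an average, and 2 had both above, against 45.7%. In CTL, 27 were lower at E14 by 2-fold or more (background 12.5%) and 2 were higher by that margin (14.6%). In *Stat3* cKO, 26 were lower (11.7%) and the same 2 were higher (10.1%), with *Col4a5* the gene that differed by less. The median E14 to E11 ratio of these collagens, on the log2 scale, was -4.04 in CTL and -4.08 in *Stat3* cKO, whereas over all entries with a ratio it was 0.21 and 0.06. By 2-fold or more in both genotypes, 26 were lower (9.54%) and 2 higher (7.49%), and 17 collagens were at least 10-fold lower in both (2.38%).

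These counts depend on how genes were let in. Of the 29, 14 had a mean below 1 FPKM over the E14 libraries and so passed only through E11, where they had to be higher, and *Col5a3* passed only through E14. Among genes with at least 1 FPKM in both E14 libraries, where no gene enters through E11, 11 of 14 collagens were at least 2-fold lower at E14 in both genotypes (5.15%) and 2 were at least 2-fold higher (8.3%). With no filter, 32 of 44 were at least 2-fold lower in both genotypes (13.2%) and 3 higher (6.57%), the third being *Col28a1*, whose highest value was 0.133 FPKM. The direction over the collagens was thus the same however they were let in.

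**Figure D2:**
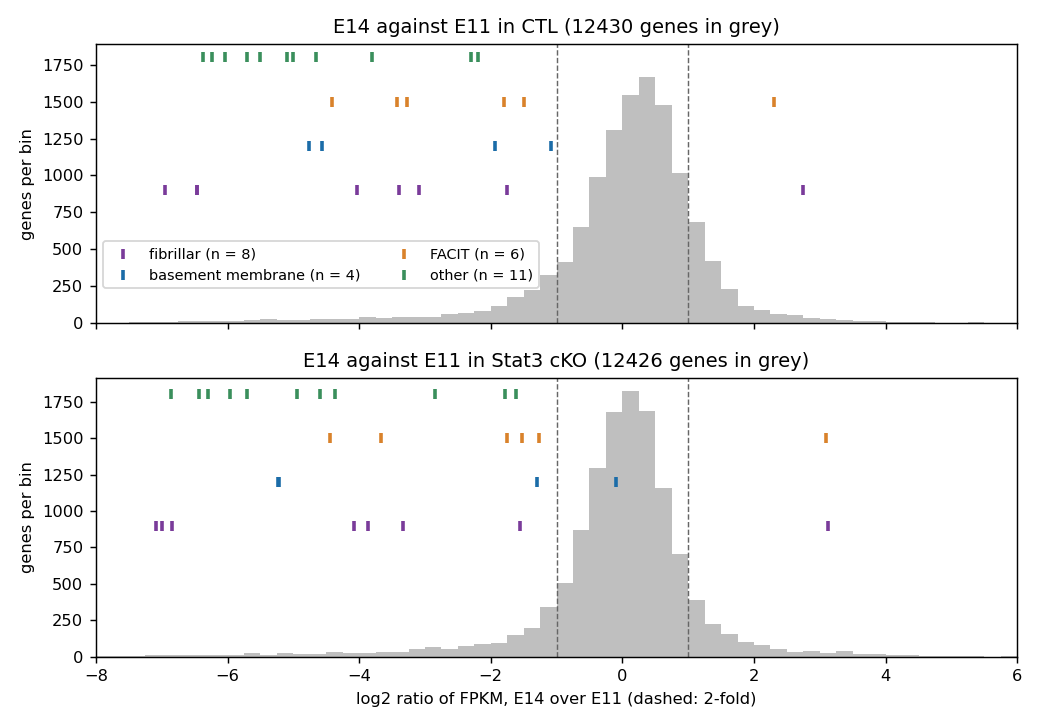
Number of genes per 0.25-wide bin of the log2 ratio of E14 to E11 FPKM (grey, all entries averaging 1 FPKM or more), with 1 tick per collagen in a row per class, for CTL (top) and *Stat3* cKO (bottom). Collagen ticks run from -6.95 to 2.74 in CTL and from -7.09 to 3.12 in *Stat3* cKO, and most lie left of the grey peak.

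Fibrillar collagens carried most of the E11 sum and most of the difference between stages. Their summed level was 1124, 1044, 30.8 and 29.4 FPKM, or 71.0%, 69.6%, 37.7% and 30.8% of all collagen FPKM. Of the 8 that passed the filter, 7 were at least 2-fold lower at E14 in each genotype (12.5% of all entries in CTL and 11.7% in *Stat3* cKO). The other 1 was at least 2-fold higher in each (14.6% and 10.1%). Of the 8, 2 had an E14 mean below 1 FPKM and so had to be lower there. The class medians were -3.71 (CTL) and -3.98 (*Stat3* cKO) on the log2 scale. The steepest were the chains of types I and III, the main fibrils of loose connective tissue. *Col3a1*, the single chain of type III collagen, was at 674 and 586 FPKM at E11, and at 7.64 and 4.29 FPKM at E14. It was 88.2 times lower at E14 in CTL and 137 times lower in *Stat3* cKO, and the stages did not overlap. *Col1a2*, a chain of type I collagen, was at 227, 215, 2.59 and 1.87 FPKM in the same order. *Col1a1*, its partner chain, was at 63.6, 68.9, 0.513 and 0.544 FPKM. The *Col1a2* level was 3.57, 3.12, 5.04 and 3.43 times that of *Col1a1*, although the type I trimer is known to hold more of the *Col1a1* product, so the order of these per-length levels was opposite to that of the chains in the protein.

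Type V and type XI chains, which start and limit fibrils, were lower at E14 by less. *Col5a2* was at 94.3 and 96.5 FPKM in the E11 libraries (CTL, then *Stat3* cKO) and at 9.01 and 9.59 in the E14 libraries, 10.5 and 10.1 times lower. *Col5a1* was at 36.4, 41.6, 2.21 and 2.46 FPKM, 16.4 and 16.9 times lower, and *Col11a1* at 16.4, 17.5, 4.84 and 5.93 FPKM, 3.38 and 2.94 times lower. At E14 *Col5a2* was the second highest collagen in both genotypes. *Col2a1*, the type II chain of cartilage, was at 8.67, 13.8, 1.02 and 0.943 FPKM. *Col5a3*, the third type V chain, was the exception of the class, at 0.276 and 0.225 FPKM at E11 and at 1.85 and 1.95 at E14, 6.70 times higher in CTL and 8.69 times in *Stat3* cKO. The 3 fibrillar collagens below the filter (*Col11a2*, *Col24a1* and *Col27a1*) lay between 0.061 and 1.57 FPKM.

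Basement membrane collagens followed the same course, with a gap between their chain pairs. The class summed to 183 and 198 FPKM at E11 and to 13.9 and 15.0 FPKM at E14, 13.2 times lower in either genotype. *Col4a1*, a chain of the type IV network found in nearly all basement membranes, was at 110, 125, 4.62 and 3.37 FPKM. *Col4a2*, which joins it in the same trimer, was at 56.0, 60.5, 2.06 and 1.61 FPKM. *Col4a1* was thus 23.8 and 37.1 times lower at E14, and *Col4a2* 27.1 and 37.5 times. The ratio of *Col4a1* to *Col4a2* stayed at 1.96, 2.07, 2.24 and 2.09, and their entries are listed 1 base apart on chromosome 8. *Col3a1* and *Col1a2*, which lie on different chromosomes, had ratios of 2.96, 2.72, 2.95 and 2.30. The X-linked pair, listed 1341 bases apart, was lower by far less, and its ratio of *Col4a5* to *Col4a6* was 3.87, 3.57, 6.98 and 8.20. *Col4a5*, which forms trimers of kidney and other specialised basement membranes, was at 13.4, 9.44, 6.27 and 8.83 FPKM. It was 2.14 times lower at E14 in CTL and 1.07 times lower in *Stat3* cKO, and its E14 *Stat3* cKO value lay close to its E11 *Stat3* cKO value. The *Stat3* cKO libraries of the 2 stages also differed in *Xist* and *Ddx3y*, so stage and sex cannot be told apart in that ratio. *Col4a6* was at 3.46, 2.65, 0.898 and 1.08 FPKM, 3.85 and 2.46 times lower. *Col4a3* and *Col4a4*, the third head-to-head pair, were at no more than 0.0873 FPKM in any library.

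FACIT collagens were the class with the smallest difference between stages when summed, and *Col9a3* held most of their E14 level. The class stood at 39.6 and 38.3 FPKM at E11 and at 24.8 and 41.5 FPKM at E14, so its share of all collagen FPKM was 2.50% and 2.55% at E11 but 30.4% and 43.3% at E14. *Col9a3*, a chain of the type IX collagen that lines cartilage fibrils, was at 3.79 and 4.05 FPKM at E11, and at 18.8 and 34.7 FPKM at E14. It was 4.95 times higher at E14 in CTL and 8.55 times in *Stat3* cKO, and was the highest collagen of both E14 libraries. The chains it is known to assemble with went the other way. *Col9a1* was at 4.08, 4.16, 1.17 and 1.74 FPKM, and *Col9a2* at 4.88, 4.59, 0.503 and 1.60 FPKM. The 3 type IX chains were therefore near equal at E11, where *Col9a3* was 0.929 and 0.974 times *Col9a1*, and unequal at E14, where it was 16.0 and 20.0 times *Col9a1* and 37.3 and 21.6 times *Col9a2*.

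The other FACIT collagens that passed the filter were lower at E14 in both genotypes. *Col12a1*, found on type I fibrils of dense connective tissue, was at 12.9, 13.5, 1.20 and 0.625 FPKM, 10.7 and 21.7 times lower. *Col16a1* was at 7.22, 7.21, 2.57 and 2.15 FPKM, and *Col22a1*, known from tissue junctions such as that of muscle and tendon, at 4.33, 3.86, 0.203 and 0.302 FPKM. The 3 FACIT genes below the filter were *Col14a1*, *Col19a1* and *Col20a1*. *Col19a1* was at 0.200, 0.154, 0.248 and 0.189 FPKM, so its stages overlapped. *Col14a1* was at 2.02, 0.563, 0.0279 and 0.0641 FPKM, the highest single value of any collagen below the filter.

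**Figure D3:**
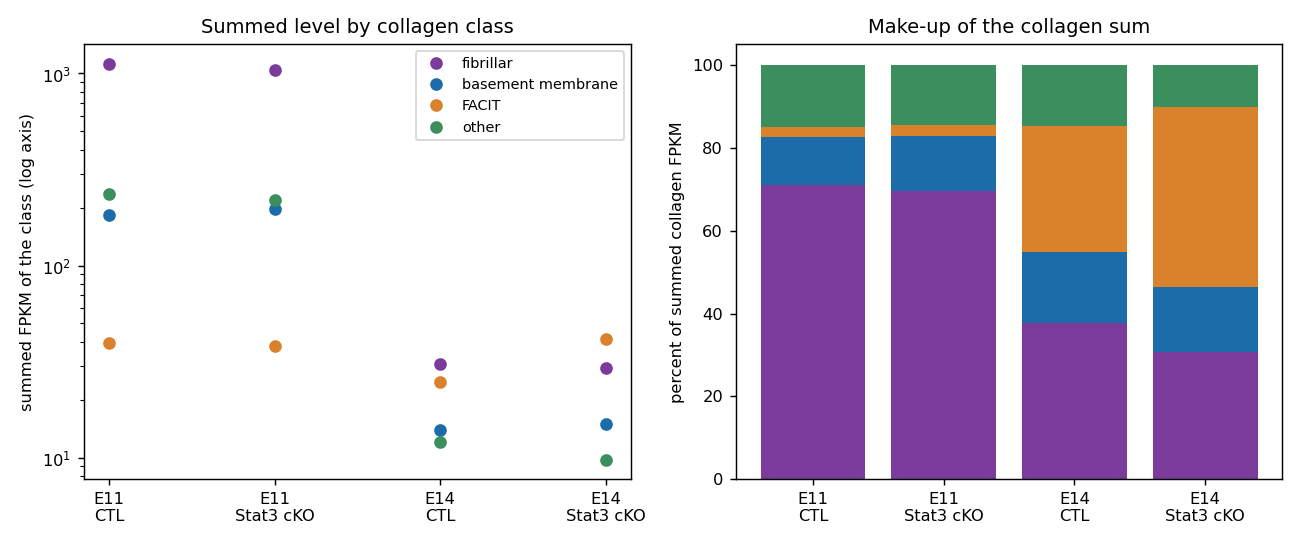
Left, summed FPKM of each collagen class in each library on a log axis, and right, the percent of the library's collagen FPKM in each class. Fibrillar collagens make up 71.0% and 69.6% of the bars at E11, and FACIT collagens 30.4% and 43.3% at E14.

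The remaining collagens, grouped here by what they assemble, were mostly low at E14. Of the 18, 11 passed the filter, and 9 of these had an E14 mean below 1 FPKM and so had to be lower there. Their median on the log2 scale was -5.09 in CTL and -4.95 in *Stat3* cKO, and over all 18, with no filter, it was -4.23 and -3.60. A pseudocount of 1 FPKM brought the median of the 11 to -2.74 and -3.31. Type VI chains form beaded filaments near the cell surface. *Col6a1* was at 40.6, 27.6, 0.779 and 0.528 FPKM, *Col6a2* at 19.7, 14.8, 0.263 and 0.189, and *Col6a3* at 24.1, 28.5, 0.368 and 0.246. The 3 genes were between 52.1 and 74.9 times lower at E14 in CTL and between 52.2 and 116 times in *Stat3* cKO. With a pseudocount of 1 FPKM, their log2 ratios went from -5.7, -6.23 and -6.04 to -4.55, -4.04 and -4.2 in CTL. In *Stat3* cKO they went from -5.71, -6.29 and -6.86 to -4.23, -3.73 and -4.56. *Col6a1* and *Col6a2* lie beside each other on chromosome 10, whereas *Col6a3* is on chromosome 1. *Col6a4*, *Col6a5* and *Col6a6*, a cluster on chromosome 9, were at no more than 0.672 FPKM.

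Chains of networks and anchoring fibrils were low at E14 as well. *Col8a2*, a chain of the hexagonal networks beneath the corneal endothelium, was at 12.4, 14.8, 0.274 and 0.238 FPKM. *Col8a1*, its partner, was at 7.06, 0.728, 0.281 and 0.238 FPKM, so that E11 CTL stood alone and the other 3 libraries were below 1 FPKM. *Col8a2* was 1.75 times *Col8a1* in E11 CTL, 20.3 times in E11 *Stat3* cKO, and near its level at E14 (0.975 times in CTL). *Col7a1*, the anchoring fibril collagen of skin, was at 3.19, 4.80, 0.0991 and 0.155 FPKM. *Col10a1*, of hypertrophic cartilage, did not exceed 0.140 FPKM.

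Transmembrane collagens, which sit in the plasma membrane and can be shed, were 3 of the 11. *Col13a1*, known at the neuromuscular junction, was at 6.19, 10.1, 0.0743 and 0.116 FPKM. *Col23a1* was at 8.38, 14.5, 0.596 and 0.703 FPKM, and *Col25a1*, a neuronal member, at 3.68, 2.50, 0.745 and 0.728. *Col13a1* was 83.2 and 86.7 times lower at E14, and *Col25a1* 4.94 and 3.43 times. The *Col13a1* values at E14 rest on a rough estimate of 9.6 and 17 fragments. With a pseudocount of 1 FPKM, its log2 ratio went from -6.38 to -2.74 in CTL and from -6.44 to -3.31 in *Stat3* cKO. *Col18a1*, which releases endostatin, is found in basement membranes but is not a type IV chain, so it is counted here. It was at 26.6, 21.5, 5.81 and 3.00 FPKM. *Col26a1*, a small secreted member, was at 83.8, 78.5, 2.46 and 3.24 FPKM. The 7 members of this group below the filter lay between 0.00527 and 0.672 FPKM.

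Between genotypes, 22 of the 29 collagens were within 1.5-fold at E14, against 86.5% of all entries, and 24 of 29 at E11, against 94.2%. Of the 29, 14 had an E14 mean below 1 FPKM, so their E14 genotype ratios compare low values. At E14, the ratio of *Stat3* cKO to CTL had a median of 0.08 on the log2 scale over the 29, beside -0.08 over all entries with a ratio, with 15 ratios above 1 and 14 below. *Col9a2* was more than 2-fold higher in *Stat3* cKO (background 1.85%), and 0 of 29 were lower by that margin (1.69%). The *Col9a2* ratio fell below 2-fold with a pseudocount of 1 FPKM, and the gene did not pass a mean of at least 5 FPKM. With a threshold of 1.5-fold, 4 were higher (5.82%) and 3 lower (7.67%). *Col9a2* was 3.19 times CTL, from 0.503 to 1.60 FPKM, and *Col9a3* 1.85 times, from 18.8 to 34.7, and *Col9a1* stood at 1.48 times. All 3 type IX chains were thus higher in E14 *Stat3* cKO than in E14 CTL, while at E11 they stood at 0.940, 1.07 and 1.02 times CTL. The others at least 1.5-fold higher, *Col7a1* and *Col13a1*, were at or below 0.155 FPKM, and the rough estimate for *Col13a1* is 9.6 and 17 fragments. *Col18a1* was 1.94 times lower, *Col12a1* 1.93 times and *Col3a1* 1.78 times lower in *Stat3* cKO.

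At E11, the median log2 ratio was 0.03 over the collagens and 0.06 over all entries, again with 15 above 1 and 14 below. No collagen was higher in *Stat3* cKO by 2-fold (0 of 29, background 0.209%), and *Col8a1* was lower by more than 2-fold (1.12%), at 9.70 times. At 1.5-fold, *Col2a1*, *Col7a1*, *Col13a1* and *Col23a1* were higher (2.18%), at 1.59, 1.51, 1.63 and 1.73 times CTL, and *Col8a1* remained the single lower gene (3.66%). *Col7a1* and *Col13a1* were the 2 collagens higher in *Stat3* cKO by 1.5-fold at both stages (0.282%), and 0 were lower at both (0.676%). In all, 19 of the 29 were within 1.5-fold of CTL at both stages (82.6% of all entries), and 12 had ratios of opposite sign at the 2 stages (55.4%). None of the 29 differed by 1.5-fold in opposite directions. Below the filter 4 did (*Col14a1*, *Col4a3*, *Col4a4* and *Col6a5*), of which *Col14a1* alone passed 1 FPKM in any library and was 3.58 times lower in *Stat3* cKO at E11 and 2.29 times higher at E14. The rough estimate for *Col14a1* is 7.4 and 19 fragments at E14 in CTL and *Stat3* cKO. The share of all entries with such opposite ratios was not taken, so these counts stand without a background.

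**Figure D4:**
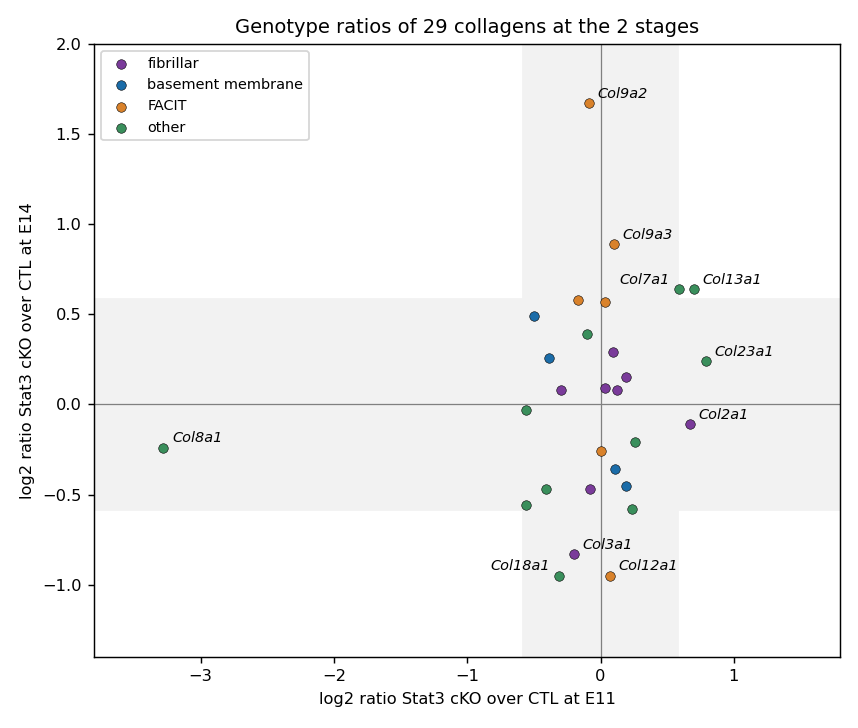
Log2 ratio of *Stat3* cKO over CTL, with E11 on the horizontal and E14 on the vertical axis, for the 29 collagens averaging 1 FPKM or more, coloured by class, with the shaded bands marking ratios within 1.5-fold. *Col8a1* stands alone at the left with -3.28 at E11, and *Col9a2* at the top with 1.67 at E14.

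The X-linked *Col4a5* and *Col4a6* were 1.41 and 1.20 times CTL at E14, where the libraries also differed in *Xist* and *Ddx3y*, and 0.705 and 0.766 times CTL at E11. At E14 the part of embryo sex in these ratios cannot be told apart from that of genotype, whereas both E11 libraries held *Xist* at 39.7 or more and *Ddx3y* at 0.

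Genes that make, fix and bind collagen were read beside the chains. Of 26 genes of collagen folding, processing and cross-linking that passed the filter, 12 were at least 2-fold lower at E14 in both genotypes (9.54% of all entries) and 2 higher (7.49%), and the list had medians of -1.16 (CTL) and -1.24 (*Stat3* cKO) on the log2 scale. *Serpinh1*, the collagen chaperone, was at 554, 395, 102 and 117 FPKM, and *Lox*, which cross-links fibrils, at 58.5, 68.1, 0.217 and 0.197. *Pcolce*, an enhancer of procollagen cleavage, was at 32.4, 26.6, 1.02 and 0.366 FPKM. *Fkbp10*, *Crtap* and *Lepre1*, which fold and modify procollagen, were at 26.6, 23.8, 2.57 and 2.49 FPKM, at 20.8, 19.7, 9.47 and 5.06 FPKM and at 20.3, 20.6, 6.38 and 7.08 FPKM. The chaperone thus remained above 100 FPKM at E14, while *Lox* did not reach 1 FPKM. Its relatives *Loxl1*, *Loxl2* and *Loxl3* were between 1.14 and 4.26 FPKM in the E14 libraries.

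Receptors and network partners were counted in the same way. Of 7 receptor and uptake genes, 4 were at least 2-fold lower at E14 in both genotypes (9.54% of all entries) and 0 higher (7.49%), with medians of -1.64 and -1.58. *Ddr2*, a collagen receptor kinase, was at 34.3, 23.4, 0.562 and 0.562 FPKM, and the other lower genes were the uptake receptor *Mrc2* and the integrins *Itga11* and *Itga1*. The rest of the 7 were not 2-fold lower. These were *Itgb1* at 96.9, 92.4, 140 and 89.9 FPKM, *Ddr1* at 51.9, 56.0, 50.1 and 69.1, and *Gpr56* at 23.3, 22.3, 33.7 and 44.5. All 11 genes of the list, with those below the filter, summed to 236, 225, 229 and 209 FPKM. Of 15 basement membrane partners, 11 were lower in both genotypes and 1 higher, against the same shares, with medians of -1.93 and -2.01. *Nid1*, which links laminin to type IV collagen, was at 32.4, 26.1, 0.762 and 0.958 FPKM, its relative *Nid2* at 38.1, 39.9, 1.30 and 1.57, and the laminin chain *Lamb1* at 87.5, 66.6, 3.14 and 1.96. *Lama4* was at 26.1, 22.4, 1.09 and 0.580 FPKM. *Pxdn*, which bonds type IV trimers to each other, was lower by less, at 27.7, 29.5, 7.86 and 9.96 FPKM, as was *Sparc*, at 156, 143, 41.0 and 59.1.

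Fibril partners and enzymes of breakdown completed the lists. Of 12 fibril partners, 10 were lower at E14 in both genotypes (9.54% of all entries) and 0 higher in both (7.49%), with medians of -4.90 and -3.84. Of the 12, 5 had an E14 mean below 1 FPKM and so had to be lower there. The same held for 5 of the 26 folding and cross-linking genes, 3 of the 7 receptors, 5 of the 15 basement membrane partners and 2 of the 10 breakdown genes. The small proteoglycans *Lum* and *Bgn* were at 165, 172, 0.977 and 0.388 FPKM and at 34.5, 23.5, 0.257 and 0.217 FPKM. *Postn* was at 120, 34.7, 3.14 and 1.71 FPKM, with *Dcn*, *Fn1* and *Fbn2* lower in both genotypes as well. Of 10 genes of collagen breakdown and its inhibitors, 3 were lower in both genotypes (*Mmp2*, *Ctsk* and *Reck*, against 9.54% of all entries) and 2 higher (7.49%). The medians, -0.34 and -0.20, were close to 0. *Mmp2*, a gelatinase, was at 33.2, 26.7, 1.16 and 1.15 FPKM, whereas the membrane-bound *Mmp15* was at 11.6, 12.5, 67.1 and 42.7, and the inhibitor *Timp4* at 0.586, 0.349, 13.9 and 9.44. *Timp3*, another inhibitor, was at 17.6, 8.01, 7.45 and 15.2 FPKM, 2-fold or more lower in *Stat3* cKO at E11 and higher at E14.

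Markers of cell types that make collagen differed between the stages in the same direction. Of 14 mesenchymal and meningeal markers, 13 were at least 2-fold lower at E14 in both genotypes (9.54% of all entries), with medians of -5.49 and -5.15. Of these 14, 11 had an E14 mean below 1 FPKM, passed the filter only through E11 and so had to be lower at E14. The summed level of the list was 570 to 636 FPKM at E11 and 47.8 to 69.7 at E14. *Foxc1*, a regulator of meningeal development, was at 67.1, 80.6, 0.585 and 0.395 FPKM, *Foxd1* at 47.6, 53.2, 0.117 and 0.0655, *Twist1* at 42.0, 35.2, 0.450 and 0.0353, and *Tbx18* at 23.9, 27.1, 0.433 and 0.179. None of the 14 was at 0 in any library. *Lum*, *Dcn* and *Ogn* are on this list as well as among the fibril partners. The gene that was not 2-fold lower, *Pdgfra*, also known from oligodendrocyte precursors, was at 53.1, 68.7, 35.9 and 61.2 FPKM and so made up most of the E14 sum of the list. The part of mesenchymal cells in the collagen values was not tested. In bulk samples, fewer cells of a type and less RNA per cell cannot be told apart.

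The other marker lists were summed in the same way. The 10 endothelial markers summed to 5.90 to 6.12 FPKM at E11 and 1.70 to 2.49 at E14, and none exceeded 2.28 FPKM. The 9 mural markers summed to 20.0 to 22.7 FPKM at E11 and 8.51 to 11.3 at E14, with *Pdgfrb* at 13.2, 14.4, 0.625 and 1.58 FPKM and, in the opposite direction, *Cspg4* at 0.560, 0.563, 4.84 and 5.35 FPKM. The 9 microglia and leukocyte markers summed to 8.07 to 12.1 FPKM at E11 and 1.05 to 1.18 at E14, with *Aif1* at 0 in E14 CTL, and the 8 cartilage markers to 2.18 to 4.91 and 1.57 to 2.09. The cartilage markers went both ways. *Matn3*, the 1 that passed the filter, was at 3.38, 1.32, 0.118 and 0.170 FPKM, whereas *Matn4* was at 0.215, 0.149, 0.986 and 1.49 FPKM. The 10 neural progenitor markers summed to 1588 to 1760 FPKM at E11 and 7508 to 8166 at E14, where *Fabp7* alone was at 5245 and 5929 FPKM. Of these 10, 2 were at least 2-fold higher at E14 in both genotypes (*Fabp7* and *Vim*, 7.49% of all entries) and 2 lower (9.54%), *Pax6* at 44.2, 48.6, 14.6 and 19.0 FPKM and *Msi1* at 21.2, 21.8, 4.25 and 7.03 FPKM. The 8 neuron markers were at 708 to 741 FPKM at E11 and 834 to 957 at E14.

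**Figure D5:**
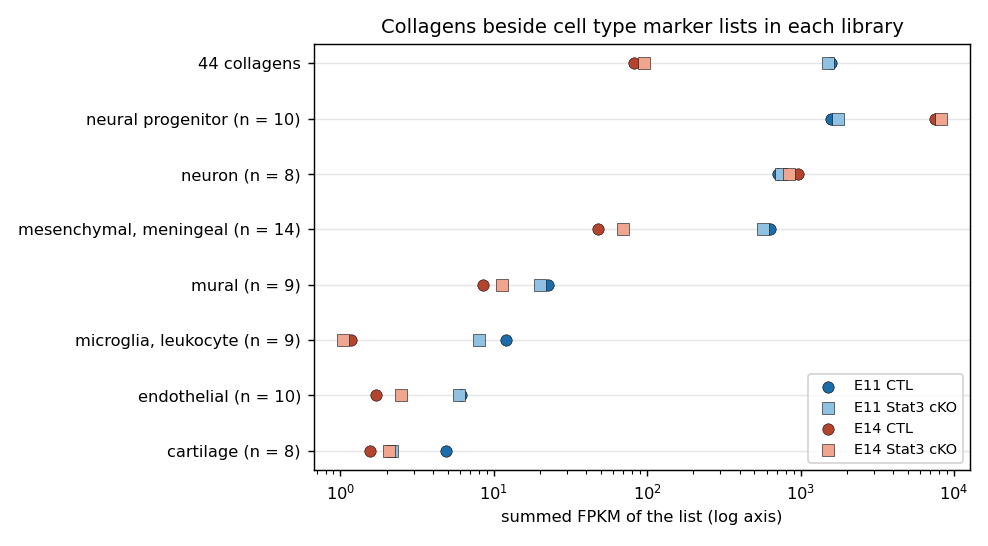
Summed FPKM on a log axis of the 44 collagens and of 7 cell type marker lists, with 1 point for each of the 4 libraries. The collagens and the mesenchymal, mural, microglial, endothelial and cartilage lists have both E14 points below both E11 points, whereas the sum of the neural progenitor markers, which *Fabp7* leads at E14, has them above.

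The mesenchymal and meningeal list was also read beside the genotype values. At E14, 4 of the 14 mesenchymal and meningeal markers were lower in *Stat3* cKO by 2-fold (background 1.69%) and 0 higher (1.85%), with a median log2 ratio of -0.74. The 4 (*Twist1*, *Foxc2*, *Tbx18* and *Lum*) were each below 1 FPKM in both E14 libraries and had passed the filter only through E11, and *Pdgfra*, the abundant member at E14, was higher in *Stat3* cKO (61.2 against 35.9 FPKM). Of the 29 collagens, 3 were at least 1.5-fold lower in the same library (7.67%) and 4 at least 1.5-fold higher (5.82%), with a median log2 ratio of 0.08. At E11, 1 of the 14 markers was at least 2-fold lower (1.12%), *Ogn*, at 28.8 and 3.77 FPKM. None were higher by that margin (0.209%), and the median log2 ratio was -0.26, with 6 of the 14 above CTL. The part of these markers in the collagen values was not tested.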

How the data were processed

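The authors checked reads with FastQC, aligned them with TopHat and estimated expression with Cufflinks, and deposited 1 FPKM value per gene and library. Per the labels, as the submitters' processing notes list them, Bowtie 0.12.2 and the builds mm8 and mm9 were used. The other versions and the scaling between libraries are not given in the sources used here. Positions are as listed, and promoter sequences are from RefSeq GRCm38.p6.

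Entries averaging 1 FPKM or more across the 4 libraries were compared by ratios of the deposited values, with no pseudocount. No ratio was taken where either library was at 0. Calls were made at 2-fold and, between genotypes, also at 1.5-fold. Every collagen above the filter was named. From each partner list, up to 6 genes with the highest mean that differed at least 2-fold between stages in both genotypes or between genotypes at E14 were eligible for naming. *Pdgfra*, *Sox2*, *Ogn*, *Foxc2*, *Aif1*, *Loxl1*, *Loxl2*, *Loxl3*, *Itgb1*, *Ddr1*, *Gpr56*, *Matn4* and the collagens named below the filter were chosen after their values were seen. The members and lists were chosen with earlier results of these data known. Of the list genes, only Mia3 had no entry. Fragment estimates used the longest GENCODE transcript. Steps were checked on simulated data. Python 3.11.15, numpy 2.4.6, pandas 2.3.3 and matplotlib 3.10.9 were used. Alternatives were a pseudocount of 1, the median of all genes set to 0, upper-quartile scaling, a mean of 5 FPKM, no filter, 1.5-fold, and, added after seeing the data, at least 1 FPKM in both E14 libraries.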

Additional observations from a re-analysis of the deposited data

How the results depend on the processing

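Leaving out a replicate was not possible with 1 library per group. No paired analysis was possible for the same reason, and no result comes from a test. Setting the median of all genes to 0 and upper-quartile scaling changed no count by more than 1.5 times, although the latter moved the median log2 ratio of all genes by -0.2 for E14 against E11 in CTL. With a pseudocount of 1 FPKM, 0 collagens passed 2-fold upward in *Stat3* cKO at E14, in place of 1. With a mean of at least 5 FPKM, 1 collagen passed 2-fold upward from E11 to E14 in each genotype in place of 2, 1 had both E14 libraries above both E11 libraries, 17 were lower in *Stat3* cKO, and 0 passed 2-fold in either direction between genotypes at either stage, so *Col9a2* and *Col8a1* dropped out. With no filter, 4 of 44 were higher at E14 in *Stat3* cKO, 5 were higher and 1 lower than CTL in *Stat3* cKO at E14, and 5 lower at E11. The share of all entries was not taken for these no-filter counts, so they stand without a background. At 1.5-fold, 4 were higher and 3 lower in *Stat3* cKO at E14, and 4 higher at E11. With at least 1 FPKM in both E14 libraries, 12 were lower at E14 in CTL and 11 in *Stat3* cKO. The shifts under another filter or threshold follow from the genes admitted or the margin, and under the pseudocount the log2 ratio of *Col9a2* went from 1.67 to 0.79. No ratio of 2-fold or more changed its direction under any setting, and of 540 single-gene values 6 changed sign, all genotype ratios no larger than 0.03 on the log2 scale. With 1 library per group, no genotype difference can be told from the variation between cultures.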
